A study of Mus musculus with 2 samples.

Results

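The enzymes that write, erase and read methyl and acetyl marks on histones and on DNA were examined in mutant beta cells of mouse islets. The set holds 60 genes, chosen by symbol and by biochemical activity and not by measured value. Earlier results of these data were known when they were chosen. All 60 were found among the 55487 genes of the deposited tables. The set leaves out Hdac1, Hdac2 and Kdm1a. The cells came from mice of 2 months that carried floxed alleles of Myt1, Myt2 and Myt3 (genotype label MytF/F; Myt2F/F; Myt3F/F; RipCre), with Cre recombinase driven by the rat insulin promoter, so that deletion is directed to beta cells. Males and females were pooled, islet cells were sorted by flow cytometry, and 2 RNA libraries of this 1 genotype were sequenced. Library 2 is labelled as a duplicate, and its mice are not described apart from those of library 1. A p-value between the libraries measures only how these 2 libraries differ, and Y-linked, acinar and interferon-induced genes, described further on, differed between them as well. Beta cells of control mice were not analysed here, and each level below is that of cells sorted from mutant mice and none is an effect of the mutation. Library 1 held 50121771 counted reads and library 2 held 39003197. All 9 beta-cell markers, among them Ins1, Ins2, Mafa and Pdx1, reached 1 CPM in both libraries, and their median was 902 TPM. Hormone RNA of other islet cells was present too, with Sst at 5788 TPM in library 1 and 4155 TPM in library 2. Ppy had 3479.5 and 4785.6 TPM and Gcg 852 and 602 TPM, against 217980 and 230180 TPM for Ins2. Each level is that of the sorted cells together, and the part of other cells in it was not tested. In bulk RNA, fewer cells of a type and less RNA per cell cannot be told apart.

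Histone marks are placed by writers, removed by erasers and bound by readers, and the same residue can be methylated or acetylated. Methylation of lysine 4 of histone H3 (H3K4) marks promoters and enhancers, H3K36 and H3K79 methylation marks transcribed gene bodies, and H3K9 and H3K27 methylation marks silent chromatin. Polycomb repressive complex 2 (PRC2) methylates H3K27, and complex 1 (PRC1) ubiquitinates histone H2A and compacts chromatin. Deacetylases remove the acetyl groups that p300 and CBP add, DNA methyltransferases methylate cytosine in CpG, and TET enzymes oxidise that methyl group. In beta cells these enzymes are known for work on proliferation and identity: Ezh2 and Bmi1 repress the cell-cycle inhibitor locus Cdkn2a, menin acts with the MLL enzymes on cell-cycle inhibitor genes, and Dnmt3a silences genes that mature beta cells do not use.

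The promoters of 49 of the 60 genes were present in a RefSeq table of windows (GRCm38.p6) that run from 250 bases before to 50 bases after a transcript start. The genes with no window there were Ash1l, Hdac10, Hdac3, Kdm2a, Kdm3b, Kdm4b, Kdm5a, Kdm6b, Kmt2b, Kmt2e and Setd1b. A window is called CpG-rich where its GC content is at least 50% and its observed over expected CpG ratio at least 0.6. By this measure 45 of the 49 genes (91.8%) had a CpG-rich window, against 72.4% of the 10459 genes with a window and a mean CPM of at least 1, and 35.96% of all 27025 genes with a window. The median window of the 49 genes held 24 CpG, against 21 over the expressed genes and 7 over all genes. The windows of Hdac5 and Hdac9 are printed 5′ to 3′ because these genes are the highest and the lowest of the class IIa deacetylases, and every CG is in capitals. Hdac5 lies at chr11:102230123-102230422 on the minus strand and holds 18 CpG at an observed over expected ratio of 0.66. Hdac9 lies at chr12:34528840-34529139 on the minus strand and holds 3 at a ratio of 0.205. This window is 1 of 2 for Hdac9, and the other, at chr12:34917046-34917345, holds 0.
Hdac5: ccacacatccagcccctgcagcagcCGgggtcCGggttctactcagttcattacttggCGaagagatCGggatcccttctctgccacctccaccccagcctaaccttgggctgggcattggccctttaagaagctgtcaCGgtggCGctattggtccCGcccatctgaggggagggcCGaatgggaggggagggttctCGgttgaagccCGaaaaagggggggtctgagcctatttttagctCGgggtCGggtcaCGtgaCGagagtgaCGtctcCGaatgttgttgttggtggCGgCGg
Hdac9: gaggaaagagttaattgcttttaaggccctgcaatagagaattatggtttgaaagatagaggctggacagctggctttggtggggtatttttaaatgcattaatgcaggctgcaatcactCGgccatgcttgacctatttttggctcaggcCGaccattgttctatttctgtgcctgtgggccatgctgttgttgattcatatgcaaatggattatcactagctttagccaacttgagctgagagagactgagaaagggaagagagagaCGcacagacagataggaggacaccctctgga

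E2F factors drive genes of DNA replication, and 3 exact forms of their site were searched on both strands: TTTGGCGC, TTTCCCGC and TTTCGCGC. At least 1 form was found in 4 of the 49 genes (8.16%), namely Dnmt1, Ezh2, Sirt4 and Suz12, against 3.85% of the expressed genes and 2.12% of all genes with a window. Ezh2 and Dnmt1, the replication-linked members of the Polycomb and DNA methylation classes, are printed beside Ezh1, the paralog of Ezh2 whose window held no form, with the forms in capitals. Ezh1 lies at chr11:101226414-101226713 on the minus strand, Ezh2 at chr6:47594981-47595280 on the minus strand and Dnmt1 at chr9:20952574-20952873 on the minus strand. The form in Ezh2 begins 3 bases after the start, and those in Dnmt1 begin 219 bases before and 33 bases after it. The Dnmt1 window printed is the most downstream of 3 for this gene in the table, and the other 2, of which neither is CpG-rich, held no form.
Ezh1: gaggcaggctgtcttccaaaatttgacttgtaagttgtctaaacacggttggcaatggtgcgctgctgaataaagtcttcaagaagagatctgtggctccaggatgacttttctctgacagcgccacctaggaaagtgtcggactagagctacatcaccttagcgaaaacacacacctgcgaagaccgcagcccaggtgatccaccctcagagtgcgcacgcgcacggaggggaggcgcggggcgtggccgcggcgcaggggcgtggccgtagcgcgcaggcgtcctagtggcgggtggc
Ezh2: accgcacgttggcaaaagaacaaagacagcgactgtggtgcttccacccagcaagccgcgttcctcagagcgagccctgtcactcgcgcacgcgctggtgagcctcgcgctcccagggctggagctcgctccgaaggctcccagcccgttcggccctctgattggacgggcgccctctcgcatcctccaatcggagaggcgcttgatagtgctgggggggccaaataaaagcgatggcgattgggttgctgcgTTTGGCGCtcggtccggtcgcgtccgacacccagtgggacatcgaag
Dnmt1: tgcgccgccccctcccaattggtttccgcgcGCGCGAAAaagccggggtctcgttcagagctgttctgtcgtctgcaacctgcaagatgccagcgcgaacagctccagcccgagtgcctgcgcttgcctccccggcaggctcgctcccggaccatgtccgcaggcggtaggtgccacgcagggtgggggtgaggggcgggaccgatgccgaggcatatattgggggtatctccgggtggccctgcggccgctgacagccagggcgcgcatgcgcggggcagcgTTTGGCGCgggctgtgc

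Myt zinc-finger proteins bind a site whose core is AAAGTTT, and Sirt6 was the only one of the 49 genes with that heptamer on either strand (2.04%), against 4.16% of the expressed genes and 5.44% of all genes with a window. Of the 2 windows of Sirt6, that at chr10:81627517-81627816 on the minus strand is printed, and the other held no match. The match, AAACTTT on the strand shown, is in capitals and begins 7 bases before the start. The cyclic AMP response element TGACGTCA was present in Suv39h2 alone (2.04%, against 3.66% and 2.03%), and the CCAAT box in 20 genes (40.8%, against 42.9% and 41.1%). Each match describes letters in a window and is no evidence of binding, and these motifs and windows were chosen with the expression values known.
Sirt6: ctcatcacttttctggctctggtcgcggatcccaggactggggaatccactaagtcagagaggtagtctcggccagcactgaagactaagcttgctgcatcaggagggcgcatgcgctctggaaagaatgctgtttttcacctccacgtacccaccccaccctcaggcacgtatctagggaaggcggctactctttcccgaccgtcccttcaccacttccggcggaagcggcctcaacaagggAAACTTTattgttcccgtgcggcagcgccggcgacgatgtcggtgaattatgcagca

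All 60 genes were expressed in both libraries at 1 CPM or more (CPM are counts scaled to the library total), and all 60 also reached 1 TPM, the length-scaled value used here to compare genes. Their median was 21.4 TPM, against 14.1 TPM over the 13955 genes whose mean CPM was at least 1 and 5.64 TPM over the 20681 genes with 10 or more reads in all. Of the 60 genes, 44 lay above the median of those 13955 genes, 16 lay in their top 25% and 7 in their lowest 25%. A mean of 10 TPM or more was reached by 49 genes, 6 exceeded 50 TPM and 7 stayed under 5 TPM. The 6 highest were Ehmt2, Bmi1, Kdm4a, Hdac6, Kdm6b and Men1, and the 7 lowest were Hdac8, Sirt5, Ezh2, Suv39h1, Tet1, Suv39h2 and Hdac9. Reads per gene ran from 133 to 17198 in library 1 and from 112 to 12669 in library 2, and 45 genes had at least 1000 reads in both, so counting error is small for most levels. When the genes were placed in order of mean TPM, the 2-library ranges of 47 of the 59 neighbouring pairs overlapped, and neighbours in that order mostly do not differ beyond their spread. The 12 neighbouring pairs with separate ranges included the steps down from Ehmt2 through Bmi1 and Kdm4a to Hdac6 at the top, and those from Suv39h1 through Tet1 and Suv39h2 to Hdac9 at the bottom. By class, the median level was highest in the H3K4 methyltransferases with menin at 35.5 TPM (9 genes) and the Polycomb proteins at 32.3 TPM (8 genes). H3K36 and H3K79 methyltransferases (3 genes) had a median of 24.6 TPM, p300 with CBP (2 genes) 22.7 TPM and demethylases (11 genes) 20.5 TPM. Sirtuins (7 genes) had a median of 17.5 TPM, zinc-dependent deacetylases (9 genes) 15.4 TPM and H3K9 methyltransferases (5 genes) 14.8 TPM. The class of DNA methyltransferases and TET enzymes (6 genes) was lowest at 10.48 TPM.

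**Figure D1:**
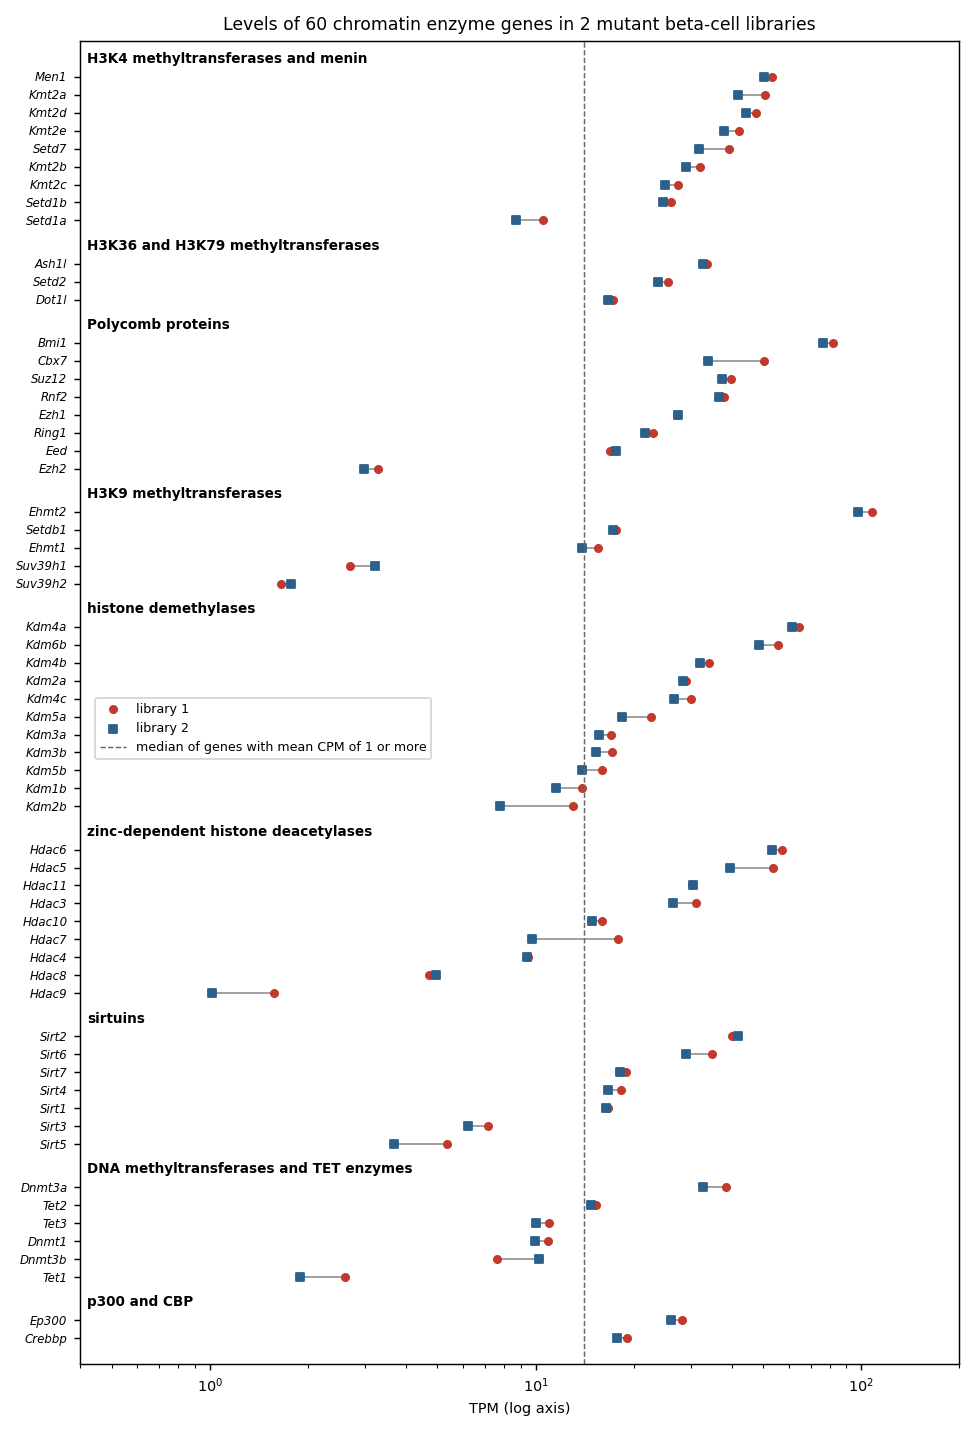
TPM of each of the 60 genes on a log axis, in rows grouped by class, with a circle for library 1 and a square for library 2; the dashed line is the median of 14.1 TPM over the 13955 expressed genes. The 2 libraries keep the genes in nearly the same order, and 44 of the 60 genes lie right of the line in the mean.

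The plot of levels by class shows that several classes held a member set far below the rest, such as Ezh2 among the Polycomb proteins, Tet1 among the DNA methylation enzymes and Hdac9 among the deacetylases. Among H3K4 enzymes that member was Setd1a. Men1 encodes menin, the subunit that tethers MLL1 and MLL2 to chromatin, and had 53.2 TPM in library 1 and 50.2 TPM in library 2 (51.7 ± 2.095 TPM, SD, n = 2). Kmt2a (MLL1) had 50.6 TPM in library 1 and 41.8 TPM in library 2 (46.2 ± 6.17 TPM), and its paralog Kmt2b (MLL2) had 31.96 and 29.04 TPM. Kmt2a thus exceeded Kmt2b 1.58-fold in library 1 (95% interval 1.53 to 1.63) and 1.44-fold in library 2 (1.39 to 1.49). Kmt2d (MLL4), which monomethylates H3K4 at enhancers, had 47.4 and 44.4 TPM against 27.4 and 24.9 TPM for Kmt2c (MLL3), a ratio of 1.73-fold (library 1) and 1.78-fold (library 2). Setd1b, catalytic subunit of a SET1 complex for promoter H3K4 trimethylation, had 26.1 and 24.6 TPM against 10.54 and 8.702 TPM for Setd1a, and exceeded it 2.47-fold (library 1) and 2.83-fold (library 2). The count of Setd1a is uncertain, because 52.3% of its exon bases overlap the gene Gm49388 on the same strand. Kmt2e (MLL5), a member with no established H3K4 activity of its own, had 42.3 and 37.8 TPM, and Setd7, a monomethyltransferase of H3K4 and of other proteins, had 39.4 and 31.6 TPM. As shares of the 4 KMT2 genes' summed TPM, Kmt2a took 31% ± 1.62 (SD, n = 2), Kmt2d 30.9% ± 1.07, Kmt2b 20.5% ± 0.286 and Kmt2c 17.6% ± 0.264. No KMT2 gene therefore made up most of the family's RNA. Men1 exceeded Kmt2a 1.05-fold (library 1) and 1.2-fold (library 2), and this order turned without length scaling (mean log2 ratio −1.95), since Kmt2a has 16670 exon bases.

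Enzymes of gene-body marks were all present. Ash1l, an H3K36 dimethyltransferase, had 33.7 TPM in library 1 and 32.7 TPM in library 2, and Setd2, the enzyme of H3K36 trimethylation, had 25.5 and 23.8 TPM, so that Ash1l exceeded Setd2 1.32-fold (library 1) and 1.37-fold (library 2). Dot1l, the H3K79 methyltransferase, had 17.3 and 16.7 TPM, the lowest of the 3.

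In PRC2, the paralog of resting cells supplied most of the catalytic RNA. Ezh1 had 27.2 TPM in library 1 and 27.4 TPM in library 2 (27.3 ± 0.123 TPM, SD, n = 2; 3684 and 2919 reads). Ezh2, the methyltransferase typical of dividing cells, had 3.28 TPM in library 1 and 2.98 TPM in library 2 (3.13 ± 0.215 TPM; 399 and 285 reads). Ezh1 exceeded Ezh2 8.29-fold in library 1 (95% interval 7.47 to 9.21) and 9.19-fold in library 2 (8.14 to 10.4), and it took 89.7% ± 0.676 (SD, n = 2) of their summed TPM. Ezh2 stood at percentile 17.4 of the expressed genes. Beside this low level, 6 of 10 markers of proliferating cells reached 1 CPM, at a list median of 1.29 TPM and sums of 83.02 CPM in library 1 against 99.4 CPM in library 2. Ezh1 (ENSMUSG00000006920) lies on chromosome 11, minus strand, positions 101191115 to 101226463, and Ezh2 (ENSMUSG00000029687) on chromosome 6, minus strand, positions 47530139 to 47595341 (GRCm38, GENCODE M21). Suz12, the scaffold of PRC2, had 39.8 and 37.3 TPM and exceeded Eed, the subunit that binds trimethylated H3K27, which had 16.9 and 17.6 TPM, 2.35-fold (library 1) and 2.11-fold (library 2). The 2 EZH genes summed to 30.5 TPM in library 1 and 30.4 TPM in library 2, between the levels of Suz12 and Eed.

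In PRC1, Bmi1 stood far above the other PCGF genes. Bmi1, the ring-finger partner of the E3 ligase, had 81.9 TPM in library 1 and 76.5 TPM in library 2 (79.2 ± 3.81 TPM, SD, n = 2) and took 48.99% ± 0.798 of the summed TPM of the 6 PCGF genes, with Pcgf2 next at 14.2% ± 0.49. Its level is uncertain to the extent that 16.7% of its 50-base words occur in other genes, mainly Gm5946. Rnf2 (RING1B), an E3 ligase for histone H2A, had 37.9 and 36.5 TPM against 22.9 and 21.6 TPM for its paralog Ring1, a ratio of 1.65-fold (library 1) and 1.69-fold (library 2). Cbx7, a chromodomain reader of H3K27 trimethylation, had 50.4 TPM in library 1 and 33.9 TPM in library 2 (42.1 ± 11.7 TPM).

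H3K9 methyltransferases spanned the widest range of any class. Ehmt2 (G9a), which mono- and dimethylates H3K9, was the highest of the 60 genes with 108 TPM in library 1 and 97.4 TPM in library 2 (103 ± 7.17 TPM, SD, n = 2; 10743 and 7661 reads), at percentile 93.7 of the expressed genes. Its partner in the same heterodimer, Ehmt1 (GLP), had 15.6 TPM in library 1 and 13.9 TPM in library 2 (14.8 ± 1.19 TPM). Ehmt2 exceeded Ehmt1 6.89-fold in library 1 (95% interval 6.59 to 7.21) and 6.997-fold in library 2 (6.63 to 7.39). Ehmt2 lies on chromosome 17, plus strand, positions 34898469 to 34914052, and Ehmt1 on chromosome 2, minus strand, positions 24789928 to 24919614 (GRCm38, GENCODE M21). Setdb1, the enzyme of H3K9 trimethylation that silences retroelements, had 17.6 and 17.3 TPM. The heterochromatin enzymes were low: Suv39h1 had 2.701 TPM in library 1 and 3.21 TPM in library 2, and Suv39h2 had 1.66 TPM in library 1 and 1.77 TPM in library 2 (133 and 112 reads). Suv39h1 exceeded Suv39h2 1.63-fold in library 1 (95% interval 1.32 to 2.02) and 1.81-fold in library 2 (1.44 to 2.28), though 14.6% of the exon bases of Suv39h1 overlap Gm14820, a gene on the opposite strand, and the library kit does not mark strand.

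Of the demethylases, Kdm4a and Kdm6b led. Kdm4a, which removes H3K9 and H3K36 trimethylation, had 64.3 TPM in library 1 and 61.2 TPM in library 2 (62.8 ± 2.18 TPM, SD, n = 2) and took 50.6% ± 0.739 of the TPM of 3 KDM4 genes. It exceeded Kdm4b, which had 34.1 and 31.98 TPM, 1.89-fold (library 1) and 1.92-fold (library 2), and Kdm4c had 30.1 and 26.6 TPM. Kdm6b (JMJD3), a demethylase of H3K27, had 55.4 TPM in library 1 and 48.6 TPM in library 2 and took 56.5% ± 0.444 of the KDM6 family, against 25.9% ± 5.93 for X-linked Kdm6a and 17.6% ± 5.49 for Y-linked Uty. Kdm5a had 22.5 and 18.5 TPM against 16 and 13.9 TPM for Kdm5b, both erasers of H3K4 methylation, a ratio of 1.41-fold (library 1) and 1.33-fold (library 2). Over all 4 KDM5 genes the X-linked Kdm5c, which is not among the 60, took the most TPM at 62.5% ± 4.65. Kdm2a, an H3K36 demethylase that binds CpG islands, had 28.9 and 28.4 TPM against 13.1 and 7.76 TPM for Kdm2b, the lowest of the class and also a PRC1 recruiter. Kdm2a exceeded Kdm2b 2.21-fold in library 1 (95% interval 2.12 to 2.31) and 3.67-fold in library 2 (3.45 to 3.903), intervals that do not overlap. The H3K9 demethylases Kdm3a and Kdm3b could not be ordered, with 17.1 and 15.7 TPM for Kdm3a and 17.2 and 15.4 TPM for Kdm3b, and 24.6% of the exon bases of Kdm3b overlap Gm26538. Kdm1b (LSD2), a flavin-dependent H3K4 demethylase, had 13.9 and 11.6 TPM.

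Zinc-dependent deacetylases were led by Hdac6 and Hdac5. Hdac6, a cytoplasmic enzyme that deacetylates tubulin, had 56.99 TPM in library 1 and 53.2 TPM in library 2 (55.1 ± 2.67 TPM, SD, n = 2). Hdac5, a class IIa corepressor that moves between nucleus and cytoplasm on phosphorylation, had 53.4 TPM in library 1 and 39.6 TPM in library 2 (46.5 ± 9.78 TPM). It took 65.5% ± 1.0 of the class IIa TPM, against 19.03% ± 3.88 for Hdac7, 13.7% ± 3.02 for Hdac4 and 1.803% ± 0.145 for Hdac9. Hdac5 exceeded Hdac4, at 9.49 and 9.44 TPM, 5.63-fold in library 1 (95% interval 5.39 to 5.88) and 4.195-fold in library 2 (3.99 to 4.42), and 22.4% of the exon bases of Hdac4 overlap Gm26720 on the opposite strand. Hdac7 had 17.9 TPM in library 1 and 9.74 TPM in library 2. Hdac9 was the lowest of the 60 genes with 1.57 TPM in library 1 and 1.02 TPM in library 2 (424 and 216 reads), at percentile 6.42 of the expressed genes. The Hdac9 window printed above is 1 of 2 for this gene, neither of them CpG-rich, and the Hdac5 window printed there is CpG-rich. CpG content did not follow level across the class IIa genes. The window of Hdac4 held 32 CpG and those of Hdac7 from 5 to 35, against 18 for Hdac5. Among class I enzymes, Hdac3, the catalytic subunit of the NCoR and SMRT complexes, had 31.1 and 26.4 TPM against 4.71 and 4.93 TPM for Hdac8, a ratio of 6.604-fold (library 1) and 5.34-fold (library 2). Hdac11, the class IV enzyme that removes fatty acyl groups, had 30.2 and 30.4 TPM and exceeded Hdac10, a polyamine deacetylase at 15.97 and 14.9 TPM, 1.89-fold (library 1) and 2.04-fold (library 2). Of the exon bases of Hdac11, 17.9% overlap Gm44002, which leaves its count uncertain.

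Sirtuins deacetylate with NAD as cosubstrate, and Sirt2 and Sirt6 stood above the rest. Sirt2, mainly cytoplasmic, had 40.1 TPM in library 1 and 41.7 TPM in library 2 and took 30.01% ± 2.29 of the TPM of 7 sirtuins (SD, n = 2). Sirt6, a chromatin-bound H3K9 and H3K56 deacetylase, had 34.7 TPM in library 1 and 29 TPM in library 2 and took 23.3% ± 1.84. Sirt6 exceeded the nucleolar Sirt7, at 18.99 and 18.2 TPM, 1.83-fold (library 1) and 1.59-fold (library 2), but without length scaling the order turned (mean log2 ratio −0.11). Sirt1, the nuclear sirtuin known in beta cells for a role in insulin secretion, had 16.7 and 16.5 TPM, and Sirt2 exceeded it 2.404-fold (library 1) and 2.53-fold (library 2). Of the mitochondrial sirtuins, Sirt4 had 18.3 and 16.7 TPM, Sirt3 7.15 and 6.19 TPM and Sirt5, a desuccinylase, 5.36 and 3.69 TPM. Sirt3 exceeded Sirt5 1.33-fold (library 1) and 1.68-fold (library 2), yet 12.7% of the exon bases of Sirt3 overlap Ric8a, and 14.2% of the words of Sirt5 occur in other genes.

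DNA methylation enzymes were dominated by Dnmt3a and Tet2. Dnmt3a, the de novo methyltransferase of differentiated cells, had 38.4 TPM in library 1 and 32.7 TPM in library 2 (35.6 ± 4.02 TPM, SD, n = 2) and took 64.6% ± 3.99 of the DNMT TPM. Dnmt1, which copies methylation after replication, had 10.9 TPM in library 1 and 9.98 TPM in library 2, and Dnmt3b had 7.62 TPM in library 1 and 10.3 TPM in library 2. Dnmt3a exceeded Dnmt1 3.51-fold (library 1) and 3.28-fold (library 2) and Dnmt3b 5.04-fold in library 1 (95% interval 4.67 to 5.45) and 3.19-fold in library 2 (2.96 to 3.44). Dnmt3b took a share of 16.4% ± 4.23, which overlaps the 19.02% ± 0.238 of Dnmt1, so their order is not resolved. Uhrf1, which brings Dnmt1 to hemimethylated DNA and is not among the 60, was near the detection limit at 1.22 CPM in library 1 against 1.59 CPM in library 2. Tet2 had 15.3 and 14.8 TPM against 10.97 and 10.03 TPM for Tet3, a ratio of 1.39-fold (library 1) and 1.48-fold (library 2). Tet1, a paralog known from embryonic stem cells, had 2.61 TPM in library 1 and 1.897 TPM in library 2. Tet2 exceeded Tet1 5.87-fold in library 1 (95% interval 5.43 to 6.35) and 7.801-fold in library 2 (7.05 to 8.65). Dnmt3a lies on chromosome 12, plus strand, positions 3806007 to 3914443, and Tet2 on chromosome 3, minus strand, positions 133463679 to 133545139 (GRCm38, GENCODE M21). The acetyltransferases p300 and CBP were close, with 28.1 and 26.1 TPM for Ep300 and 19.02 and 17.8 TPM for Crebbp, a ratio of 1.48-fold (library 1) and 1.47-fold (library 2).

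**Figure D2:**
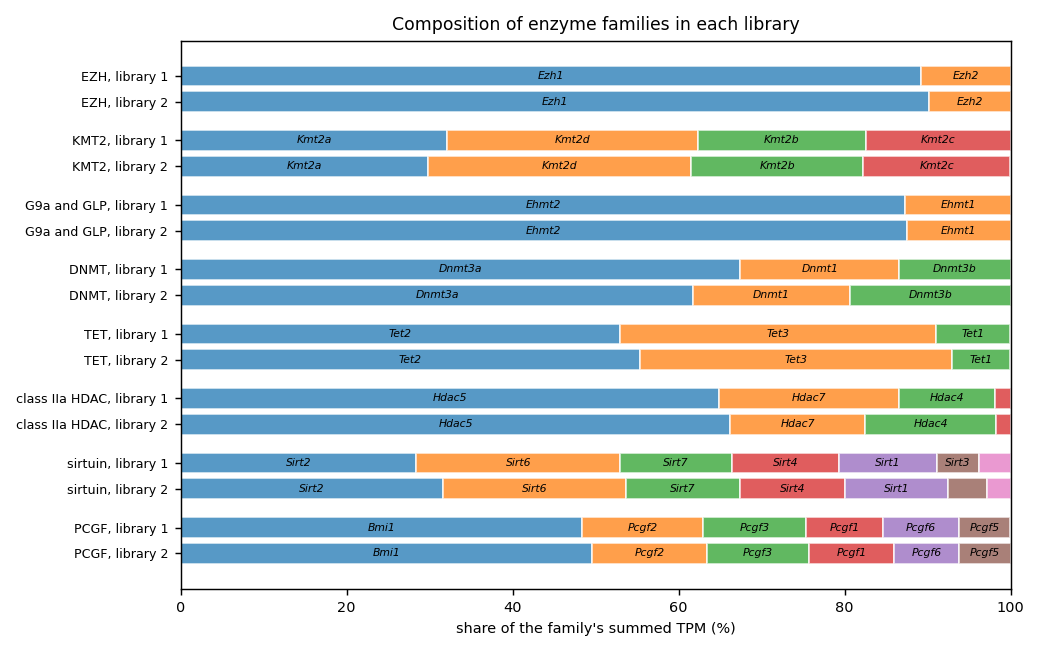
Share of each family's summed TPM taken by each gene, in percent, in 1 stacked bar for library 1 and 1 for library 2; segments too narrow for a name are unlabelled. Ezh1 fills 89.2% and 90.2% of its pair and Ehmt2 87.3% and 87.5%, whereas the 4 KMT2 genes each take between 17.4% and 32.1%.

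The plot of family shares sets families carried by 1 gene beside families spread over several. In all, 25 pairs of paralogs or complex partners were compared within each library, where library size cancels. The order was the same in both libraries for 24 pairs, and for 24 pairs both 95% counting intervals lay off a ratio of 1, with Kdm3a and Kdm3b the exception on each count. In 11 of the 25 pairs the difference was 2-fold or more in the mean. Without length scaling the order differed for 3 pairs, namely Men1 with Kmt2a, Kdm3a with Kdm3b and Sirt6 with Sirt7.

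**Figure D3:**
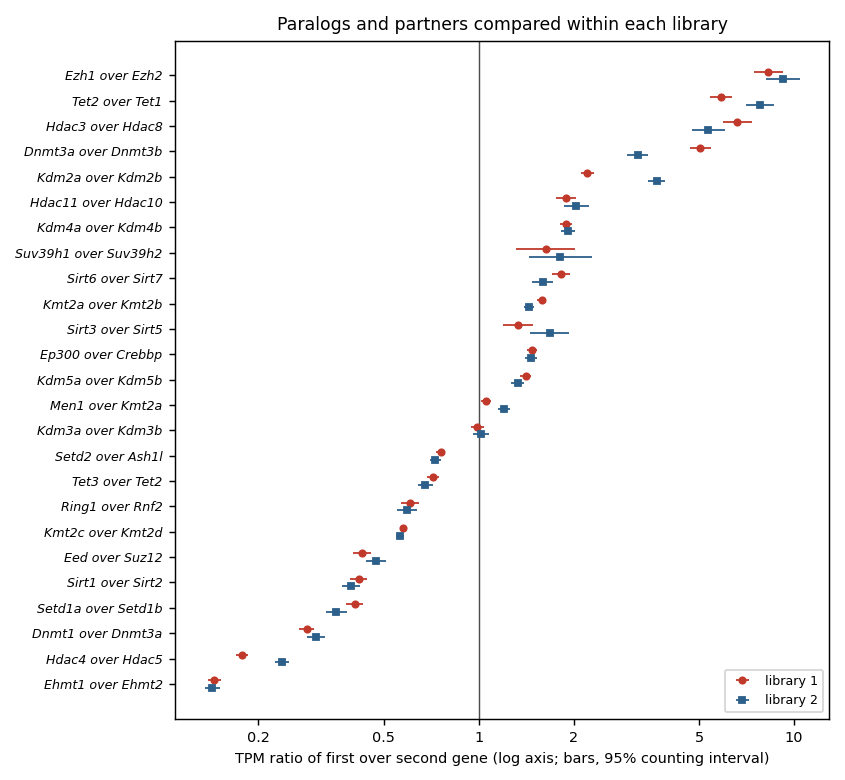
TPM ratio of the 2 genes of each of the 25 pairs on a log axis, first gene over second, with a circle for library 1 and a square for library 2 and bars for exact 95% counting intervals. Ezh1 over Ezh2 lies farthest right, at 8.29 and 9.19, and Ehmt1 over Ehmt2 farthest left, at 0.145 and 0.143.

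In the plot of pair ratios, the 2 libraries differ by more than their counting intervals for a few pairs, among them Kdm2a over Kdm2b, Dnmt3a over Dnmt3b, Hdac4 over Hdac5 and Tet2 over Tet1. Each of these holds a gene that also differed between the libraries in the comparison that follows. The pair ratios and that comparison use the same counts, so this is no separate evidence.

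Whether levels were alike in the 2 libraries was asked with an exact two-sided binomial test of each gene's 2 counts against the library totals, adjusted by Benjamini-Hochberg over 20681 genes. It compares the reads of 2 libraries of 1 genotype, not conditions. None of the 60 genes was called at an adjusted p under 0.05 with a ratio of 2-fold or more. The background was 4.31% of the genes tested (2.4% higher and 1.91% lower in library 1). Among the 11613 genes within the set's range of mean CPM, only 80 were called higher and 123 lower in library 1. A count of 0 therefore does not set the 60 genes apart. At the adjusted p alone, 31 genes were higher in library 1 (background 19.0%) and 1, Dnmt3b, was higher in library 2 (background 13.4%). These 32 genes are 53.3% of the set, against 32.4% of all genes tested and 46.3% of the 11613 genes within the set's range of mean CPM (27.0% higher and 19.3% lower in library 1), from 2.76 to 334. At an unadjusted p under 0.05 there were 39 of the 60 (background 39.8%, and 6303 of the 11613 genes in the set's CPM range). Most of these differences were small: the median absolute log2 ratio was 0.11 over the 60 genes, 0.13 over genes in the same CPM range and 0.21 over all tested. Library 1 had the higher CPM for 51 of the 60 genes (85.0%), against 56.4% of all genes tested, with a median log2 ratio of library 1 over library 2 of 0.10 for the 60 and 0.04 for all. With totals scaled by TMM or by DESeq2 size factors, 44 of the 60 were higher in library 1, against 49.8% and 49.6% of all genes, and 23 passed the adjusted p in that direction, against 14.4% (TMM) and 14.3% (DESeq2) of all genes tested. In the other direction Sirt2 and Dnmt3b passed, against 17.4% (TMM) and 17.5% (DESeq2) of all genes tested. All 9 H3K4 genes were higher in library 1 under each scaling, and 7 passed the adjusted p (6 under TMM or DESeq2 scaling). All 11 demethylases were higher in library 1, 10 of them under TMM or DESeq2 scaling, and 7 passed under each. With unscaled totals, 27.0% of genes in the set's CPM range passed in that direction. So did 5 of 9 zinc-dependent deacetylases, 3 of 6 DNA methylation genes and 2 of 5 H3K9 methyltransferases. Of the other classes, 2 of 8 Polycomb genes, 2 of 7 sirtuins, 1 of 3 H3K36 and H3K79 methyltransferases, Ep300 and Crebbp passed. Long genes had slightly higher ratios: over 4 equal bins of expressed genes by exon length, shortest to longest, the median log2 ratio was −0.0033, 0.02, 0.04 and 0.05, and 33 of the 60 genes fell in the longest bin, with a median of 0.12. The part of gene length in the direction of the 51 genes was not tested.

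**Figure D4:**
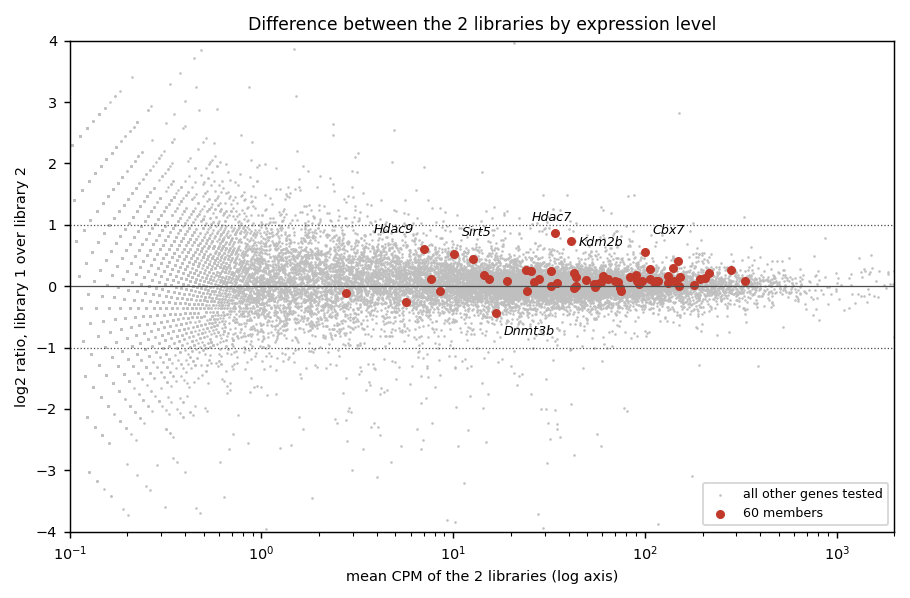
Log2 CPM ratio of library 1 over library 2 against mean CPM of the 2 libraries (log axis), with red points for the 60 genes, grey points for the other genes tested and dotted lines at 2-fold. All red points lie between the dotted lines, and Hdac7 at 0.86 and Dnmt3b at −0.44 are the extremes; a few other genes lie outside the axes.

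The plot of ratio against level places the set inside the band of genes with similar counts, and 8 genes passed 1.25-fold (background 21.8% of expressed genes) and 3 passed 1.5-fold (background 8.26%). Hdac7, a class IIa deacetylase known from endothelial cells and thymocytes, had 43.99 CPM in library 1 against 24.2 CPM in library 2, a ratio of 1.82 (95% interval 1.69 to 1.97) (exact binomial test with Benjamini-Hochberg adjustment, log2 ratio 0.86, adjusted p = 2.97e-55). Of the expressed genes, 3.504% lay as far from 1 or farther. Kdm2b had 51.5 CPM in library 1 against 30.97 CPM in library 2, a ratio of 1.66 (95% interval 1.55 to 1.78) (log2 ratio 0.73, adjusted p = 7.67e-49, the same exact test), and 12.5% of its words occur in other genes, mainly its neighbour Rnf34. Hdac9 had 8.46 CPM in library 1 against 5.54 CPM in library 2, a ratio of 1.53 (95% interval 1.29 to 1.81) (log2 ratio 0.61, adjusted p = 2.18e-06, exact). Hdac7, Kdm2b and Hdac9 are the genes past 1.5-fold, and Hdac9 rests on the fewest reads of them. Cbx7 had 119 CPM in library 1 against 80.7 CPM in library 2, a ratio of 1.47 (95% interval 1.41 to 1.54) (log2 ratio 0.56, adjusted p = 8.05e-69, exact), Sirt5 had a ratio of 1.44 (95% interval 1.251 to 1.65) and Tet1 of 1.36 (95% interval 1.203 to 1.53). Hdac5 had 170.3 CPM in library 1 against 128 CPM in library 2, a ratio of 1.33 (95% interval 1.29 to 1.38) (log2 ratio 0.42, adjusted p = 5.01e-58, exact). Of the 4 class IIa deacetylases, Hdac5, Hdac7 and Hdac9 were among the 8 genes past 1.25-fold, while Hdac4 had a ratio of 0.994 (95% interval 0.939 to 1.05). Dnmt3b, the gene that passed the adjusted p in the other direction, had 14.1 CPM in library 1 against 19.2 CPM in library 2, a ratio of 0.735 (95% interval 0.662 to 0.815) (log2 ratio −0.44, adjusted p = 4.56e-08, exact), and 9.81% of its words occur in other genes. Suv39h1 lay next below 1 at 0.833 (95% interval 0.696 to 0.996), which did not pass (adjusted p = 0.111, exact). The X-linked genes of the set were not uniform, with ratios of 0.833 for Suv39h1, 1.06 for Hdac6 and 0.944 for Hdac8.

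Other features of the libraries moved beside these ratios. Of 12 acinar markers, 11 were detected and all 11 tested were lower in library 1, with sums of 129.6 CPM in library 1 against 578 CPM in library 2. Of 16 genes induced by interferon, 11 were detected and all 16 were lower in library 1, with sums of 159.8 CPM in library 1 against 604 CPM in library 2. The 4 Y-linked genes were all higher in library 1, with sums of 293 CPM in library 1 against 169.99 CPM in library 2. Endothelial markers, with 5 of 6 detected, summed to 28.1 CPM in library 1 against 20.97 CPM in library 2, but only 4 of the 6 were higher in library 1, and Kdr and Flt1 were at ratios of 0.658 and 0.778. Of 7 immune markers 2 were detected, with sums of 53.2 CPM in library 1 against 44.4 CPM in library 2, and of 6 mesenchymal markers 5 were detected, with sums of 14.98 CPM in library 1 against 9.87 CPM in library 2. Alpha-cell markers, all 6 detected, summed to 1401 CPM in library 1 against 1158 CPM in library 2, and delta-cell markers, all 4 detected, to 1653 CPM in library 1 against 1224 CPM in library 2. Among 5 Schwann and glial markers 3 were detected and 1 had no read in a library, with sums of 46.2 CPM in library 1 against 40.4 CPM in library 2, and of 4 erythroid markers none was detected, with sums of 0.998 CPM in library 1 against 2.33 CPM in library 2. PP-cell markers (3 of 3 detected) summed to 1074 CPM in library 1 against 1274 CPM in library 2, a sum set by Ppy (ratio 0.719), while the other 2, Pyy and Etv1, were at 1.03 and 1.57. Ductal markers (5 of 6 detected) summed to 880.4 CPM in library 1 against 1224 CPM in library 2. The 9 beta-cell markers summed to 180300 CPM in library 1 against 184480 CPM in library 2. All 9 passed the adjusted p, against 32.4% of all genes tested, with 3 higher and 6 lower in library 1. Their ratios ran from 0.802 for Ucn3 to 1.40 for Slc2a2. The part of these cells and genes in the ratios of the 60 genes was not tested.

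Partner genes of the 60 were examined in 8 lists of 118 genes chosen by known function, of which 112 were detected in both libraries, at a median of 22.2 TPM. All 11 partners of COMPASS and MLL complexes were detected (median 31.2 TPM), from Paxip1 at 63.2 and 51.2 TPM (library 1 and library 2) to Ash2l at 18.8 and 16.4 TPM. Paxip1 is a subunit of the MLL3 and MLL4 complexes, and Ash2l is a core subunit of all COMPASS complexes. Of 9 PRC2 partners, 7 were detected (median 16.2 TPM), led by the histone chaperone Rbbp7 at 161 and 153 TPM, and Jarid2, which targets PRC2, had 11.2 and 10.2 TPM. The PRC2 inhibitor Ezhip and the cofactor Epop stayed under the detection limit, with 13 and 1 reads for Ezhip and 16 and 30 reads for Epop. All 14 PRC1 partners were detected (median 16.1 TPM), with the chromodomain reader Cbx2 at 3.796 and 3.58 TPM the lowest of them. Of 27 other histone methyltransferases, 25 were detected (median 16.1 TPM), led by the actin histidine methyltransferase Setd3 at 78.97 and 74.96 TPM. The muscle enzyme Smyd1 was not detected, with 3 and 1 reads. Prmt8, with 76 and 39 reads, reached 1.52 CPM in library 1 and barely missed the limit of 1 CPM in library 2 (0.9999 CPM). Of 13 other JmjC proteins, 12 were detected (median 17.1 TPM), led by Kdm5c at 68.2 and 69.6 TPM, and Kdm4d was not, at 0.25 and 0.0976 TPM. The 18 subunits of HDAC corepressor complexes were all detected and formed the highest list (median 47.9 TPM), from the NuRD helicase Chd4 at 156 and 130.4 TPM to Tbl1xr1 at 7.66 and 6.74 TPM, part of the NCoR complex. All 12 other histone acetyltransferases were detected (median 24.1 TPM), from Kat2b at 47.2 and 43.9 TPM to Kat6b at 11.2 and 10.1 TPM. Of 15 methyl-CpG readers and DNA methylation partners, 14 were detected (median 22.3 TPM), led by Mbd6 at 119.5 and 101 TPM, and Dnmt3l, the germline cofactor of Dnmt3a, was not, with 6 and 2 reads.

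**Figure D5:**
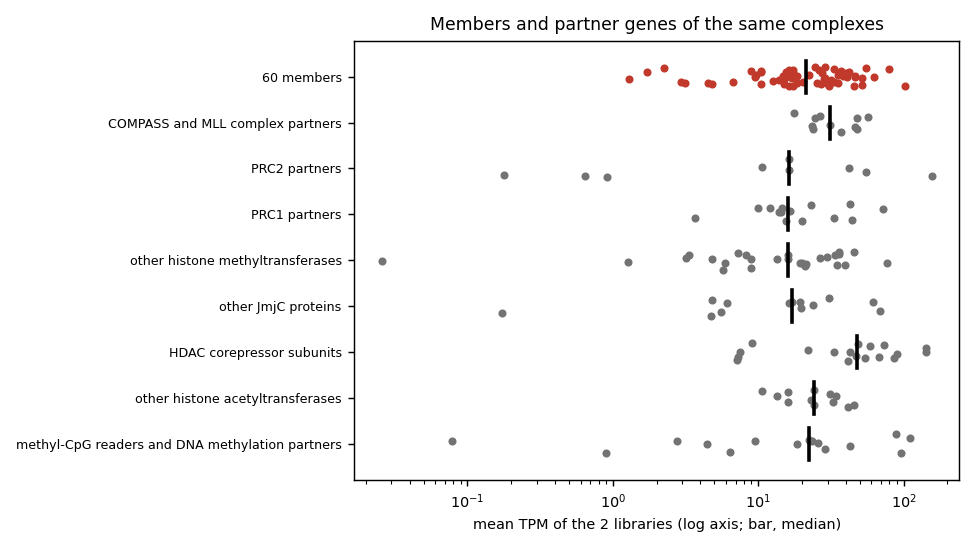
Mean TPM of each gene of the 8 partner lists on a log axis (grey), 1 row per list under a row of the 60 genes (red), with a bar at each median; vertical spread within a row has no meaning. The HDAC corepressor subunits have the highest median at 47.9 TPM, and the genes under 1 TPM are few.

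The plot of partner lists shows medians of 16.1 TPM or more in every list. Between the libraries, of 116 partner genes tested 45 were higher and 11 lower in library 1 at the adjusted p alone. These are 48.3% of the partner genes, against 32.4% of all genes tested (19.0% higher and 13.4% lower in library 1). Among the 13955 genes with a mean CPM of at least 1, the share was 43.8%. Among the 11613 genes with a mean CPM from 2.76 to 334, the share was 46.3% (27.0% higher and 19.3% lower in library 1). The share of partner genes that passed was thus near that of genes at similar levels. At 2-fold 3 partner genes were called, against 4.31% of all genes tested. These 3 were Ezhip and Epop, which rest on few reads, and Kdm5d. Kdm5d, a Y-linked H3K4 demethylase, had 46.4 CPM in library 1 against 21.4 CPM in library 2 (log2 ratio 1.12, adjusted p = 1.76e-88, exact binomial test with Benjamini-Hochberg adjustment). Its X-linked counterpart Kdm5c had 176 CPM in library 1 against 182 CPM in library 2. Y-linked Uty, of the KDM6 family, was likewise higher in library 1, with 74.4 CPM in library 1 against 42.6 CPM in library 2, while its X-linked counterpart Kdm6a had 64.6 CPM in library 1 against 80.4 CPM in library 2, a ratio of 0.803. The autosomal Kdm5a and Kdm6b had ratios of 1.21 and 1.13, nearer to 1 than Kdm5d and Uty.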

How the data were processed

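RNA of sorted mutant beta cells was sequenced in 2 libraries. The authors deposited a raw count, CPM and TPM per gene for each library, per the file headers. The build GRCm38.p6 and the tools featureCounts 2.0.2, STAR 2.7.8a and cutadapt 2.10 come from the submitters' processing notes. The sources used here do not give their parameters, the strand option or how reads with several matches were treated. The library kit (TruSeq DNA, per the labels) does not mark strand, so reads of antisense neighbours cannot be told apart.

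Computed here were levels with the SD of the libraries (n = 2), exact Clopper-Pearson 95% intervals, and ratios of CPM (0.5 read added). Intervals cover counting error only, since PCR copies cannot be told from separate molecules. The binomial test used scipy 1.17.1 on 20681 genes (10 reads or more in both libraries together). It was also run on simulated counts that held counting error alone, so that run does not cover spread between libraries. A test with replicate spread needs a second group. Alternatives used edgeR 4.0.16 (TMM) and DESeq2 1.42.0 (size factors). With an intercept only, edgeR gave a biological coefficient of variation of 18.3% across all genes. The floor of 3 reads equals 0.0599 CPM in library 1 against 0.0769 in library 2. GENCODE M21 (GRCm38) gave positions and exon overlaps for 55227 of 55487 identifiers. The length implied by TPM lay within 1% of the merged exons for 59 of the 60 genes, the exception being Hdac9. Of the 60 genes, 6 had over 10% of exon bases inside another gene and 10 shared over 10% of their 50-base words, and their counts are uncertain.

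Named in full were the highest 2 and the lowest gene of each class and all pair members. From each partner list the highest, the lowest and any called gene were named, except 1 gene that is not reported here, and Jarid2, Uhrf1, Uty, Kdm6a and Prmt8 were added after their values were seen. The 60 genes, the lists, the pairs and the motifs were chosen with earlier results of these data known.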

Additional observations from a re-analysis of the deposited data

How the results depend on the processing

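All 60 genes stayed detected without either library. With CPM in place of TPM, the median level on the log2(value + 1) scale was 5.92 in place of 4.48. With CPM the class medians were 140.1 (H3K4), 96.7 (H3K36 and H3K79), 62.8 (Polycomb), 43.7 (H3K9), 83.9 (demethylases), 42.5 (zinc-dependent deacetylases), 32.3 (sirtuins), 46.1 (DNA methylation) and 116 CPM (p300 and CBP), as the value is then not scaled by length. Single libraries gave Polycomb medians from 30.6 to 32.6 TPM and deacetylase medians from 14.9 to 17.9 TPM. The genes called between libraries numbered 892, 356 where the mean CPM had to reach 1, 1664 at 1.5-fold and 6699 at the adjusted p alone. Of the 60 genes, 0 were called, 3 at 1.5-fold and 32 at the adjusted p alone. Under TMM and DESeq2 scaling, 2 genes in place of 1 passed the adjusted p towards library 2 (a comparison chosen after seeing the data), and the median log2 ratio of the 60 genes was 0.0545 and 0.0534 in place of 0.0970. Without length scaling the mean log2 ratio turned to −1.95 for Men1 over Kmt2a, −0.77 for Kdm3a over Kdm3b and −0.11 for Sirt6 over Sirt7. Kdm3a over Kdm3b was −0.015 in library 1 alone and 0.029 in library 2 alone. Among all values under alternatives, 169 kept their size or call, 45 moved, 4 reversed and 2 rose from 0. Those 2 are the counts of the 60 genes called at 1.5-fold and at the adjusted p alone. The 169 are no measure of stability, since many could not move. A pair ratio from 1 library always lies within 1 SD of the mean of 2, so it could only reverse. Requiring a mean CPM of 1 leaves the ratios of the 60 genes unchanged, as all exceed it. No paired analysis was possible because both libraries belong to 1 group. Depth limits Suv39h2, Suv39h1, Ezh2, Hdac8 and Hdac9 most, and without control cells no level can be tied to the deleted genes.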
